A study of Mus musculus with 8 samples.

Results

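Organic anions, organic cations and bile acids cross the hepatocyte surface through families of membrane carriers. The genes of 4 such families were compared between AML12 mouse hepatocytes with and without the VWA8 gene. The genes were taken by symbol from the Slc10a, Slc22a, Slc47a and Slco families. Each was read from the brightest probe set, over all arrays, that was annotated to that gene alone. They came to 48 of the 22180 genes measured in this way, namely 7 Slc10a, 24 Slc22a, 2 Slc47a and 15 Slco genes. AML12 is an established line of hepatocytes from a mouse that carried a growth factor transgene, and VWA8 is an ATPase of mitochondria. Of the 8 cultures, 4 were wild type and 4 carried the deletion, made with CRISPR/Cas9 (labelled VWA8-null). Each culture gave 1 Affymetrix mouse array. The cultures were grown separately and differentiated before RNA was taken. All 8 shared 1 medium, DMEM/F12 with 10% fetal bovine serum, antibiotics and the synthetic glucocorticoid dexamethasone at 40 ng/ml. Insulin and transferrin were at 0.005 mg/ml each and selenium at 5 ng/ml. How many clones the knockout cultures come from is not stated, so a clone's own traits and the deletion cannot be told apart.

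The Slc10a family includes carriers that move bile acids and steroid sulfates together with sodium. Slco genes encode the organic anion transporting polypeptides, which take up bilirubin, thyroid hormones, prostaglandins, steroid conjugates and many drugs without sodium. Slc22a genes encode organic cation, carnitine and organic anion transporters, and Slc47a genes encode exchangers that pass organic cations out of the cell against protons. In liver, uptake from blood by Slc10a, Slc22a and Slco carriers precedes conjugation inside the hepatocyte and export into bile by ATP-driven pumps.

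The labels and the cells were checked first. Vwa8 itself stood at 8.95 ± 0.0414 (SD, n = 4) on the log2 scale in wild type and 5.18 ± 0.116 (n = 4) in the knockout. Where its probes lie relative to the deleted bases is not known here. Pairs of arrays correlated with r of 0.985 to 0.989 within the wild-type group, 0.986 to 0.989 within the knockout group and 0.978 to 0.984 between them. Of 14 measured hepatocyte markers 12 were brighter than the median gene, whose mean signal was 4.57. In the knockout 13 of the 14 hepatocyte markers rose and none fell, with a log2 summed signal of 14.47 to 14.51 in wild-type and 14.97 to 15.04 in knockout arrays. None of 8 endothelial and none of 8 kidney tubule markers, and 1 of 10 stellate cell and fibroblast markers, was brighter than the median gene, and none of these 26 passed the test. Their log2 summed signals ran from 6.59 to 6.77 in wild type and 6.66 to 6.80 in the knockout (endothelial), from 6.62 to 6.82 and 6.66 to 6.81 (kidney), and from 7.31 to 7.44 and 7.27 to 7.44 (stellate). Of 8 measured bile duct and progenitor markers 6 were brighter than the median gene. In the knockout 3 of the 8 fell (Cftr, Krt7 and Aqp1), with a summed signal of 10.80 to 10.90 in wild type and 10.74 to 10.85 in the knockout. Sox9, the brightest of these 8, had means of 10.07 and 10.18 and did not pass. Cftr, Krt7 and Aqp1 had wild-type means of 5.48, 6.13 and 6.06, so the sum says little about them. Of 8 macrophage and leukocyte markers 2 were brighter than the median gene and 1 fell (Cd14), with sums of 9.09 to 9.19 and 8.78 to 8.86. Cd14 alone had means of 8.81 in wild type and 8.36 in the knockout. In RNA of whole cultures, fewer cells of a type and less RNA per cell cannot be told apart. The part of these marker shifts in the values of the carriers was not tested.

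Between the genotypes 10 of the 48 carrier genes rose and 4 fell. The largest rise was that of Slc10a1, the sodium-dependent bile acid carrier of the hepatocyte surface, at 10.6-fold. The called genes make up 29.2% of the carriers, while over all genes 20.9% fell under the threshold, an adjusted p of 0.05 by linear models with moderated variances (limma). Of all genes 10.4% rose and 10.4% fell. The carriers that passed with a change of 2-fold or more were 3 in number, Slc10a1, Slc10a5 and Slc22a28, and 2.03% of all genes did so. The 4 arrays of one genotype lay entirely on one side of the other 4 for 16 of 48 carriers and for 26.1% of all genes. The median log2 fold change was 0.06 over the carriers and -0.0027 over all genes. Among the other 301 solute carrier genes on the array 57 rose and 29 fell, or 28.6%, a share close to that of the 48. No solute carrier of any family rose more than Slc10a1, which ranked 2 among all genes in the size of its rise.

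**Figure D1:**
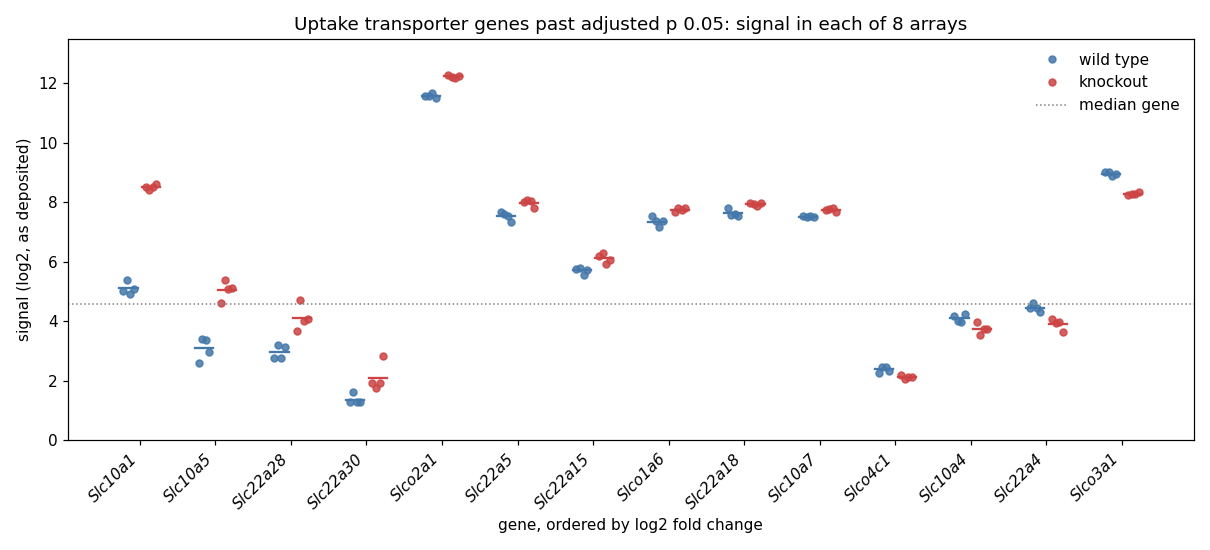
Log2 signal in each of the 8 arrays (points, with the group mean as a bar) for the 14 carrier genes past an adjusted p of 0.05, ordered by log2 fold change; the dotted line is the mean signal of the median gene, 4.57. Slc10a1 crosses from near that line to between 8.42 and 8.63, while Slco2a1 is bright in both groups and Slc22a30 and Slco4c1 lie far below the line in both.

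The carriers were dim as a group. Of the 48, 15 (31.2%) were brighter than the median gene in at least 1 genotype, against 51.4% of all genes. Among these 15 the test called 9 (60%), 8 higher and 1 lower, where 37.1% of all genes this bright were called. Among the 33 dimmer ones it called 5 (15.2%), 2 higher and 3 lower, where the background was 3.68%. A gene can enter the brighter class through the genotype in which it is high, as Slc10a5 did, so these 2 shares describe the carriers and are not a test. No measure of array background was used, so for the dim carriers low expression and none cannot be told apart. Signal also depends on each gene's probes, so it does not order the genes by expression.

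**Figure D2:**
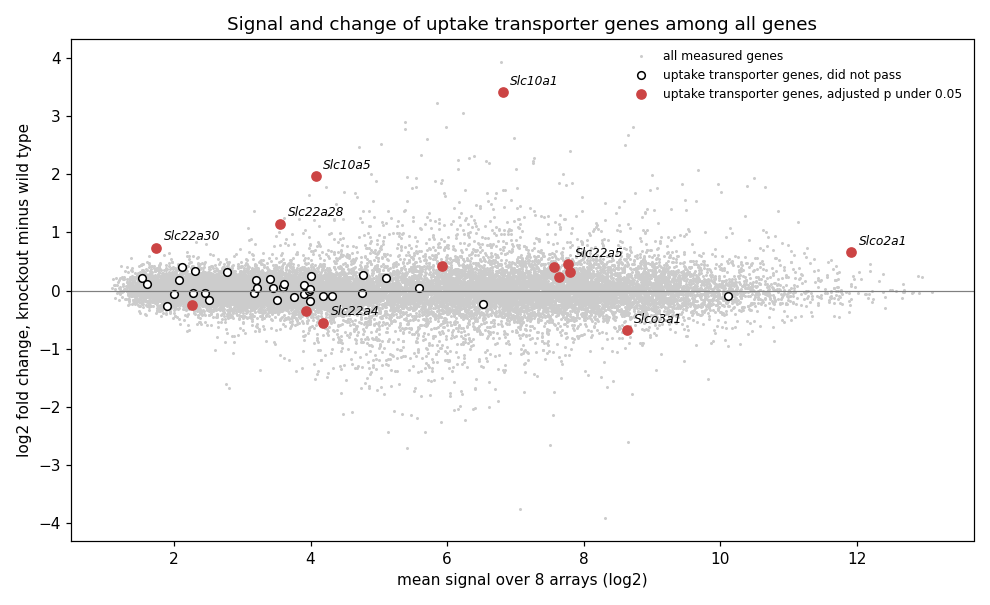
Mean log2 signal over 8 arrays (horizontal) against the log2 fold change, knockout minus wild type (vertical), for all 22180 genes (grey) and the 48 carrier genes (circles, filled red where the adjusted p was under 0.05). Most open circles lie left of the median gene's 4.57, and Slc10a1 lies near the top of the whole cloud at 3.41.

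Of the Slc10a family 3 of 7 members rose and 1 fell, or 57.1% called, beside 20.9% of all genes. Of these 7, 4 were brighter than the median gene in at least 1 genotype, a class with 37.1% called over all genes. Slc10a1 (probe set 17282300, Entrez Gene 20493, chromosome 12) read 5.03, 5.40, 4.91 and 5.09 in the wild-type arrays and 8.52, 8.42, 8.51 and 8.63 in the knockout arrays. The knockout arrays lay close together, and the lowest of them was far above the highest wild-type array. The log2 fold change was 3.41 ± 0.105 (SE), with a 95% interval of 3.17 to 3.65 and an adjusted p of 4.85e-07 (limma, n = 4 per group). An exact permutation test over the 70 arrangements of the arrays gave p = 0.0286, two-sided, the smallest that 4 against 4 arrays allow. The value ran from 3.35 to 3.51 over 17 alternative treatments of the data and passed in each of them. After subtraction of the median change of neighbouring genes, 0.0092 at this locus, it remained called.

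RefSeq gives Slc10a1 a pair of annotated starts on chromosome 12. Both promoters are shown because this gene had the largest change of the 48, and which start the probe set reads is not known here. Each window runs from 250 bases before the start to 50 bases after it, on the minus strand in assembly GRCm38.p6, and capitals mark a match to 1 of 4 short motifs on either strand. The first window is chr12:80968656-80968955 (GC content 43.0%), where the capitals are TATAAA on the opposite strand, beginning 128 bases before the start. The second is chr12:80968030-80968329 (GC content 49.7%), where they are AGGTCA, an element that nuclear receptors bind, 87 bases before the start.
Slc10a1, first window: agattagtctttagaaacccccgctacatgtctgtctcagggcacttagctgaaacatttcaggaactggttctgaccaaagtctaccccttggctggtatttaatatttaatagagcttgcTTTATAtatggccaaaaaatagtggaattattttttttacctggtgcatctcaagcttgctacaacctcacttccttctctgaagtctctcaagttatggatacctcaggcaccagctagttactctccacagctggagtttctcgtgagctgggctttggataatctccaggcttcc
Slc10a1, second window: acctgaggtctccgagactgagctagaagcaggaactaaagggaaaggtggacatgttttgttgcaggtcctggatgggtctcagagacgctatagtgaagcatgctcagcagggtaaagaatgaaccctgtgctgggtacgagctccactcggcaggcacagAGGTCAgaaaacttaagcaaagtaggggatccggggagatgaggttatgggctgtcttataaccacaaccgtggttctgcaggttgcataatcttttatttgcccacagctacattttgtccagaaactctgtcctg

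Slc10a5, a member of the family expressed in liver and kidney whose substrates are not settled, rose from below to above the median gene. Its probe set (17404122, Entrez Gene 241877, chromosome 3) read 2.59, 3.41, 3.39 and 2.98 in wild type and 4.61, 5.40, 5.09 and 5.14 in the knockout. Replicate 1 was the lowest of both groups, and the groups did not overlap. The log2 fold change was 1.97 ± 0.215, or 3.91-fold, with an adjusted p of 0.000242. It ranked 31 among all genes by the size of its rise.

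The other members of the family changed little. Slc10a7, a protein of the secretory pathway needed for normal skeletal growth, rose from 7.52 ± 0.0251 (SD, n = 4) to 7.75 ± 0.0511, a log2 fold change of 0.23 ± 0.0532 with an adjusted p of 0.0152. With the median change of its neighbours subtracted, Slc10a7 stood at 0.15 (adjusted p = 0.0884). Slc10a4, a protein of synaptic vesicles, fell at a dim level from 4.11 ± 0.128 to 3.75 ± 0.167 (-0.35 ± 0.0993, adjusted p = 0.0347). Its call was lost when wild-type replicate 1 or 4 or knockout replicate 2, 3 or 4 was left out (adjusted p from 0.0730 to 0.0898), and after subtraction of neighbouring genes (-0.24, adjusted p = 0.138).

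Slc10a2, the bile acid carrier of ileum and bile duct, read 6.51, 6.74, 6.69 and 6.61 in wild type and 6.47, 6.42, 6.28 and 6.45 in the knockout. Every knockout array was below every wild-type array, yet the fitted difference of -0.23 ± 0.0722 just missed the threshold, with an adjusted p of 0.0513 (95% interval -0.40 to -0.069). It passed in 5 of 17 alternatives, among them without wild-type replicate 1 (-0.28, adjusted p = 0.0330), while subtracting neighbouring genes left -0.048 (adjusted p = 0.703). Slc10a6, a carrier of steroid sulfates, and Slc10a4l were dim in both groups, at 0.09 and 0.19, and did not pass.

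**Figure D3:**
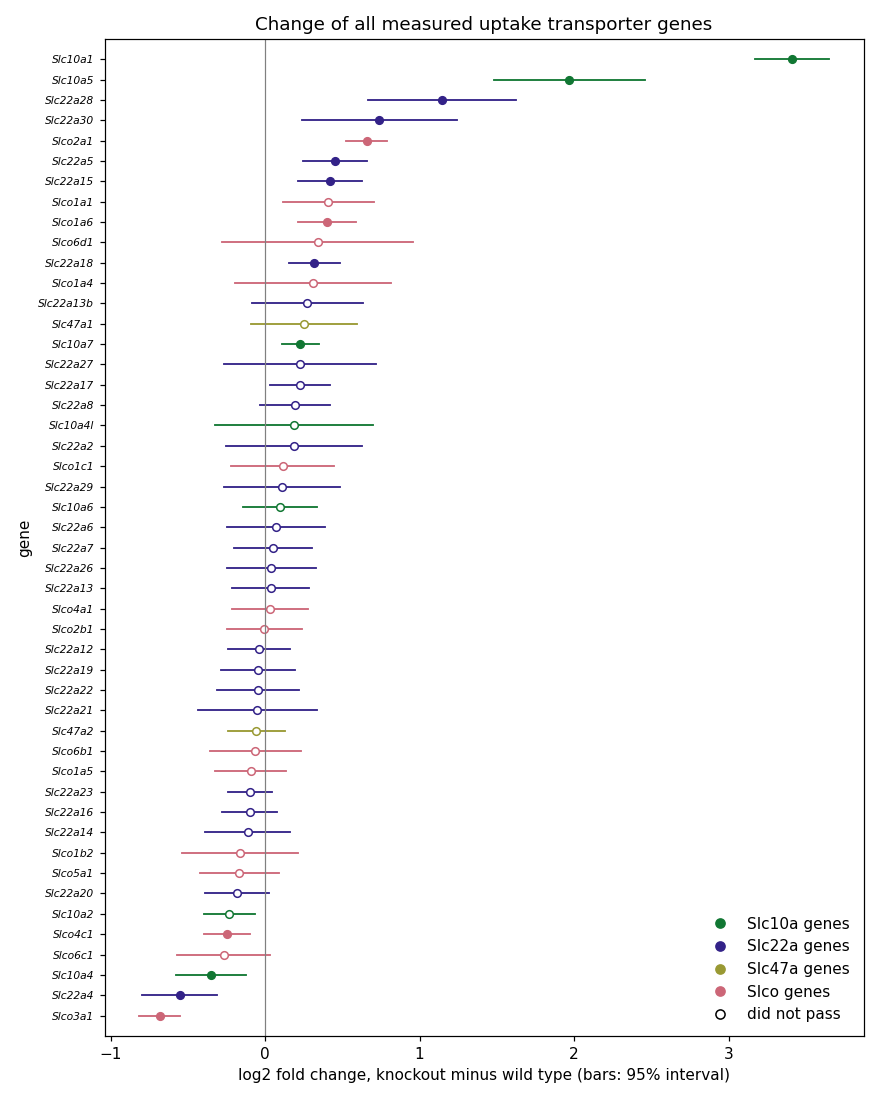
Log2 fold change, knockout minus wild type, of each of the 48 carrier genes (points) with its 95% interval (bars), coloured by family, with open points where the adjusted p was 0.05 or higher. Slc10a1 and Slc10a5 stand apart at 3.41 and 1.97, and the intervals of most open points span 0.

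In the organic anion transporting polypeptides 2 of 15 genes rose and 2 fell, or 26.7% called, a share near the 20.9% of all genes. Slco2a1, the prostaglandin transporter, was bright in both genotypes and rose. Its probe set (17520905, Entrez Gene 24059, chromosome 9) read 11.57, 11.60, 11.67 and 11.51 in wild type and 12.30, 12.23, 12.19 and 12.26 in the knockout. The spread within each genotype was small beside the gap between them. The log2 fold change was 0.66 ± 0.0578, or 1.58-fold (adjusted p = 7.03e-05). Its RefSeq promoter, chr9:103008237-103008536 on the plus strand of GRCm38.p6, is shown as that of a carrier bright in both genotypes that rose. It has a GC content of 64.0% and a TATAAA, in capitals, beginning 29 bases before the start.
Slco2a1: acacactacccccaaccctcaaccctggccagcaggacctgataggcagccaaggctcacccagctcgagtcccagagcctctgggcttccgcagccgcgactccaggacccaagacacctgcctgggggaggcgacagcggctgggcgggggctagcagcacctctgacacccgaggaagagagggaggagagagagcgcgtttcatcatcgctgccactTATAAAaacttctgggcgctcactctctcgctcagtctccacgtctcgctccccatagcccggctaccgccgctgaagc

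Slco3a1, a widely expressed carrier of prostaglandins and thyroxine, had the largest fall of the 48. Its probe set (17492196, Entrez Gene 108116, chromosome 7) read 9.02, 9.02, 8.87 and 8.97 in wild type and 8.25, 8.29, 8.28 and 8.35 in the knockout. The highest knockout array was below the lowest wild-type array. The log2 fold change was -0.68 ± 0.0584, a fall of 1.61-fold (adjusted p = 5.91e-05). These carriers of prostaglandins passed in opposite directions. Of the 3 Slco genes brighter than the median gene, the other was Slco1a6, a rodent member of the family, which rose. It read 7.53, 7.38, 7.16 and 7.36 in wild type and 7.69, 7.80, 7.74 and 7.81 in the knockout, a log2 fold change of 0.40 ± 0.0824 (adjusted p = 0.00791).

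The Slco genes best known from hepatocytes were dim in both genotypes and did not pass. Slco1b2, which takes up bilirubin, bile acids and statins in mouse liver, read 2.63, 2.45, 2.20 and 3.07 in wild type and 2.47, 2.27, 2.46 and 2.49 in the knockout. All of its knockout values lay inside the wild-type range. The difference was -0.17 (95% interval -0.54 to 0.21, adjusted p = 0.571), and without wild-type replicate 4 it was -0.0050. Slco1a4, a carrier of digoxin and bile acids, read 2.13, 2.79, 2.88 and 2.66 in wild type and 2.52, 2.78, 3.47 and 2.93 in the knockout, and its difference was 0.31 (-0.19 to 0.82, adjusted p = 0.406). Its value fell to 0.15 without wild-type replicate 1 and to 0.13 without knockout replicate 3, neither of which passed. Slco1a1, a further carrier of bile acids and steroid conjugates, read 1.84, 1.95, 1.63 and 2.23 in wild type and 2.52, 2.20, 2.21 and 2.35 in the knockout. Its groups overlapped through wild-type replicate 4 alone, and the difference of 0.41 (0.11 to 0.70) missed the threshold with an adjusted p of 0.0564. Without wild-type replicate 4 it was 0.51 (adjusted p = 0.0148), and it also passed after median centring (0.43, adjusted p = 0.0395) and after subtraction of neighbouring genes (0.45, adjusted p = 0.0409). Slco2b1, a carrier of steroid sulfates, stood at 3.98 ± 0.0415 and 3.97 ± 0.228 (SD, n = 4 each), and its difference of -0.0070 (-0.25 to 0.24) changed sign with the treatment of the data. A second, dimmer probe set of Slco2b1 gave -0.15 (adjusted p = 0.762).

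Slco4c1, known as a carrier of digoxin and thyroid hormone in kidney, fell by 0.25 ± 0.0664 from a wild-type mean of 2.38 (adjusted p = 0.0283). At this level the fall was a fragile call. It was lost when wild-type replicate 2, 3 or 4 or knockout replicate 2, 3 or 4 was left out (adjusted p from 0.0501 to 0.0788), with an intensity trend and robust variances (0.180) and with median centring (0.0528). Subtracting the median change of neighbouring genes, which was 0.24, moved Slco4c1 to -0.48. The other 7 Slco genes that did not pass, among them Slco1a5, the thyroxine carrier Slco1c1, Slco4a1 and the testis genes Slco6b1, Slco6c1 and Slco6d1, lay between -0.27 and 0.34 and were dim throughout. After subtraction of neighbouring genes, whose median changes were 0.31 and 0.24, the dim genes Slco5a1 and Slco6c1 passed as lower. Before it their adjusted p (limma) was 0.373 and 0.213. The subtraction takes the median as fixed and carries no spread of the neighbours into the test.

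Of the Slc22a genes 5 of 24 rose and 1 fell, or 25% called, a share near the 20.9% of all genes. Neighbouring genes of the carnitine and ergothioneine branch of this family moved apart. Slc22a5, the high-affinity sodium-dependent carnitine transporter (probe set 17262755, Entrez Gene 20520), read 7.67, 7.62, 7.53 and 7.33 in wild type and 8.0, 8.08, 8.06 and 7.83 in the knockout. Replicate 4 was the lowest of each genotype. The log2 fold change was 0.45 ± 0.0908, or 1.37-fold (adjusted p = 0.00713). Slc22a4, the ergothioneine transporter (probe set 17262783, Entrez Gene 30805), read 4.43, 4.62, 4.46 and 4.32 in wild type and 4.08, 3.93, 3.97 and 3.64 in the knockout. All of these values but 1 lie below the median gene. The change was -0.55 ± 0.106, a fall of 1.47-fold (adjusted p = 0.00541). Both genes lie on chromosome 11 with Slc22a21, a further carnitine carrier, between them, which was dim and stood at -0.050 (-0.44 to 0.33, adjusted p = 0.882).

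The promoters of Slc22a5 and Slc22a4 are shown because these neighbours went in opposite directions. In GRCm38.p6 they are chr11:53891654-53891953 and chr11:54028055-54028354, both on the minus strand, with GC contents of 72.7% and 69.0%. No motif searched is present in either window, so no base is in capitals.
Slc22a5: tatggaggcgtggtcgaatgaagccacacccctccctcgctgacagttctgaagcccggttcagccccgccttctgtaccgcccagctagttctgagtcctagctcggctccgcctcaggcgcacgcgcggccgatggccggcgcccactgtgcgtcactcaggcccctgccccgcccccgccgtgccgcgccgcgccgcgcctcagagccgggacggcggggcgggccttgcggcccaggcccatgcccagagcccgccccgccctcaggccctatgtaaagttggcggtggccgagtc
Slc22a4: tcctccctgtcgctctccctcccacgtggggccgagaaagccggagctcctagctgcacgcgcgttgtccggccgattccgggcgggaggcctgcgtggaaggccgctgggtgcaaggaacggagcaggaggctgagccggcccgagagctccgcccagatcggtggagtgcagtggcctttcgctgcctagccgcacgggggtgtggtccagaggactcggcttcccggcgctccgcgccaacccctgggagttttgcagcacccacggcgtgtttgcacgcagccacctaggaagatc

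The other Slc22a genes that rose split into moderately bright and very dim ones. Slc22a15, a relative of the carnitine carriers, rose from 5.71 ± 0.105 to 6.13 ± 0.158 (0.42 ± 0.0917, adjusted p = 0.0110). Around Slc22a15 on chromosome 3 the median change of neighbouring genes was 0.25, and subtracting it left 0.16 (adjusted p = 0.257). Slc22a18, an imprinted gene of chromosome 7, rose from 7.64 ± 0.126 to 7.95 ± 0.0477 (0.32 ± 0.0733, adjusted p = 0.0141). Its neighbours had a median change of -0.17, and the subtraction raised Slc22a18 to 0.49.

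Slc22a28 and Slc22a30 belong to a run of rodent organic anion transporters on chromosome 19. Slc22a28 (probe set 17362399, Entrez Gene 434674) read 2.78, 3.21, 2.77 and 3.14 in wild type and 3.66, 4.72, 4.01 and 4.09 in the knockout, a log2 fold change of 1.14 ± 0.211 (adjusted p = 0.00454). The knockout arrays were spread over more than 1 log2 unit and still cleared the wild type. Slc22a30 read 1.30, 1.62, 1.29 and 1.29 in wild type and 1.92, 1.75, 1.94 and 2.84 in the knockout and was very dim in both. Its change of 0.74 ± 0.220 (adjusted p = 0.0435) was lost when any array but knockout replicate 2 or 4 was left out (adjusted p from 0.0530 to 0.100). These genes are close relatives, and how far their probe sets respond to each other's transcripts was not tested.

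Of the 18 Slc22a genes that did not pass, differences lay between -0.18 and 0.27. Slc22a23, an orphan carrier, was bright in both genotypes, at 10.17 ± 0.0556 in wild type and 10.07 ± 0.0816 in the knockout, and its difference of -0.099 had a 95% interval of -0.24 to 0.044. Slc22a17, a receptor for lipocalin 2, read 5.13, 5.13, 4.97 and 4.77 in wild type and 5.25, 5.21, 5.26 and 5.17 in the knockout. These groups did not overlap, but the difference of 0.22 ± 0.0855 had an adjusted p of 0.108. Slc22a17 passed after subtraction of neighbouring genes and without the dimmest 50% of genes. Slc22a7, the organic anion transporter of liver, read 3.18, 3.34, 3.33 and 2.92 in wild type and 3.29, 3.41, 3.10 and 3.16 in the knockout (difference 0.050, -0.20 to 0.30, adjusted p = 0.817). Its sign turned to -0.041 without wild-type replicate 4 and to -0.0080 without knockout replicate 2. The renal carriers Slc22a6, Slc22a8 and Slc22a2 and the urate carrier Slc22a12 had means between 3.11 and 4.77 in both genotypes and did not pass.

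Neither exchanger of the Slc47a family passed. Slc47a1, which extrudes organic cations into bile and urine, read 4.09, 3.80, 4.17 and 3.49 in wild type and 3.90, 4.19, 4.25 and 4.21 in the knockout, a difference of 0.25 (-0.095 to 0.60, adjusted p = 0.318). The groups overlapped, and without wild-type replicate 4 the difference was 0.12. Slc47a2 differed by -0.059 (-0.24 to 0.13, adjusted p = 0.698).

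Many carriers sit side by side in the genome. By the order of measured genes in GRCm38.p6, 25 of the 48 lie in 6 runs in which no more than 2 other measured genes separate neighbouring carriers, and 23 lie alone. In the runs 4 genes rose and 2 fell, and 8 of the 23 lone genes changed. Over all genes 20.9% were called, with 37.1% of those brighter than the median gene and 3.68% of the others. Genes in runs and lone genes were not compared at like brightness, so these counts do not set them apart. No run changed as a whole. On chromosome 19 2 of 8 rose, Slc22a28 and Slc22a30. The rest of that run was dim and did not pass. Slc22a26, Slc22a27 and Slc22a29 stood at 0.039, 0.22 and 0.11, Slc22a8 and Slc22a6 at 0.19 and 0.067, and Slc22a19 at -0.046. On chromosome 6 only Slco1a6 of 6 passed. On chromosome 11 Slc22a5 rose and Slc22a4 fell, on chromosome 1 Slco4c1 alone of 3 fell, and the runs of Slc47a genes on chromosome 11 and of Slc22a13, Slc22a13b and Slc22a14 on chromosome 9 had no call. The median change of the 60 bright genes nearest each run was -0.010 on chromosome 19 and -0.040 around most of the chromosome 6 run.

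**Figure D4:**
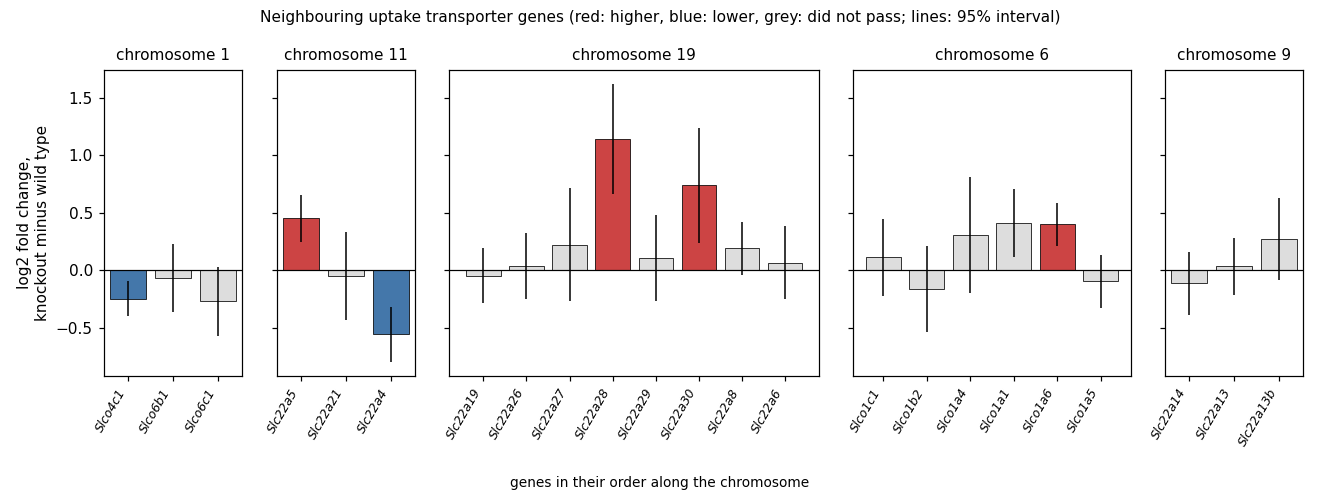
Log2 fold change, knockout minus wild type (bars), with 95% interval (lines), of carrier genes in the 5 runs of at least 3, in their order along each chromosome; red bars are higher, blue lower and grey did not pass. In every run but that of chromosome 9, which has no call, genes that passed stand beside genes that did not, and the chromosome 11 run holds a rise of 0.45 and a fall of 0.55.

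RefSeq promoter windows matched 40 of the 48 carriers, with 46 windows. GTTAAT, bound by homeobox factors in many liver promoters, was in 5 of the 46 (10.9%), against 7.10% of all 32851 promoters. AGGTCA was in 6 of the 46 (13.0%, against 16.3%) and TATAAA in 9 (19.6%, against 13.6%). CAAAGTCCA, a motif of HNF4 factors, was in none of the 46 and in 0.475% of all promoters. Both strands were searched, and the motifs share no bases in the windows printed above.

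Many genes that act with these carriers changed too. Of 117 measured genes in 8 lists of bile acid, carnitine and drug handling, 52 rose and 12 fell, with a median log2 fold change of 0.18. Over all genes, dim ones included, 10.4% rose and 10.4% fell. Of the 117, 95 were brighter than the median gene, and 37.1% of all genes that bright were called in either direction. How many of those bright genes fell was not counted, so the falls are not compared at like brightness. Among the efflux pumps 6 of 14 rose and 3 fell. Abcb11, the bile salt export pump, rose by 1.60 ± 0.133, Abcg8, a subunit of the sterol pump, by 0.91 ± 0.0788 and Abcc6 by 0.97 ± 0.0997. Abcc4, which exports bile acids back to blood, fell by 0.80 ± 0.0669. Of the bile acid synthesis and conjugation genes 11 of 17 rose and none fell, led by Cyp2c70, which makes muricholic acids, at 2.22 ± 0.0882, Akr1d1 at 1.68 ± 0.100 and Scp2 at 1.08 ± 0.0674. Cyp27a1 rose by 0.63 ± 0.0697, or 0.32 after subtraction of neighbouring genes. In the list for drug and anion conjugation, which also holds the epoxide hydrolase gene Ephx1, 9 of 15 genes rose and none fell. Ugt2b34 stood at 1.77 ± 0.0710, Sult1d1 at 0.95 ± 0.0700, Gsta4 at 0.74 ± 0.0598 and Sult1a1 at 0.63 ± 0.0524.

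Some receptors and factors that act on carrier genes also moved. Brighter than the median gene were 10 of 13 receptors and partners, 11 of 11 hepatocyte factors and 11 of 11 scaffold and sorting genes. Of all genes that bright, 37.1% were called in either direction. Of 13 receptors and partners 6 rose and none fell, among them the xenobiotic receptor Nr1i2 at 1.34 ± 0.0736, its partner Rxra at 0.76 ± 0.0678, the FGF co-receptor Klb at 0.66 ± 0.0575 and Nr5a2 at 0.55 ± 0.0929. Nr1h4, the bile acid receptor, stood at 0.051 (-0.084 to 0.19, adjusted p = 0.633), or 0.27 after subtraction of neighbouring genes (adjusted p = 0.0128). Nr0b2, a repressor that Nr1h4 induces, was dim and stood at -0.090 (-0.26 to 0.076, adjusted p = 0.470). Among hepatocyte factors 4 of 11 rose and 2 fell, with Foxa3 at 0.73 ± 0.0668, Prox1 at 0.49 ± 0.0615, Hnf4a at 0.45 ± 0.0547 and Foxa1 at -0.70 ± 0.0794. Of the genes listed for membrane scaffolds and the sorting of transporters 2 of 11 rose and 4 fell. The actin linkers Ezr and Msn fell by 0.95 ± 0.0679 and 0.92 ± 0.0534, and Pdzk1ip1 by 0.48 ± 0.0787, while the PDZ protein Slc9a3r1 rose by 0.47 ± 0.0525. With the mean of its probe sets Msn stood at -0.49.

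Beside Slc22a5, 5 of 10 genes of carnitine synthesis and use rose and none fell. Of these 10, 9 were brighter than the median gene, a class with 37.1% called in either direction over all genes. Those that rose included Shmt1 at 1.03 ± 0.0633, the carnitine carrier of mitochondria Slc25a20 at 0.62 ± 0.0550, Aldh9a1 at 0.41 ± 0.0655 and Crat at 0.39 ± 0.0538. After subtraction of neighbouring genes Aldh9a1 was at 0.27 and Crat at 0.23. Of 26 further uptake carriers of liver 9 rose and 3 fell. Of these 26, 20 were brighter than the median gene, a class with 37.1% called in either direction over all genes. The share that fell over all genes, dim ones included, was 10.4%. Slc46a3, a lysosomal carrier, rose by 1.14 ± 0.0746, the sulfate carrier Slc26a1 by 0.89 ± 0.0851 and the monocarboxylate carrier Slc16a1 by 0.66 ± 0.0578 (0.40 after the same subtraction). The nucleoside carrier Slc29a1 fell by 0.61 ± 0.0706, or by 0.29 with the mean of its probe sets. All genes named with a standard error in these lists had adjusted p no higher than 0.00278.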

How the data were processed

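The authors deposited 1 log2 value per probe set and array, and these values were used as they stand. The scale was read from the values. The authors' background correction, normalization and summarisation are not stated in the labels. Precision is limited by the number of arrays, 4 per genotype. The platform's annotation gave 1 gene symbol to 23521 of 41345 probe sets, several to 1814 and none to 16010. All 48 carriers matched the gene table of GRCm38.p6. Some genes were not analysed here.

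Genotypes were compared over all 22180 genes with limma 3.58.1 in R 4.3.3, genotype as the only term, with two-sided p-values adjusted over all genes by the Benjamini-Hochberg method and a threshold of 0.05. The fit was tested on simulated data. The text names each carrier past the threshold, 10 carriers whatever their values, and of each related list up to 4 genes with the smallest adjusted p past it, with Nr1h4, Nr0b2, Hnf4a and Abcb11 whatever theirs. Other carriers, markers and Vwa8 are given as examples or checks. Carriers and lists were chosen with earlier results of these data known. As alternatives, the replicate number entered as a block, arrays were quantile normalized, centred on their medians or weighted, variances followed an intensity trend with robust estimation, and the dimmest 25% or 50% of genes or each array in turn were left out. A gene's probe sets were also averaged or replaced by the second brightest, and the median change of the 30 nearest bright genes on each side was subtracted. A planned change of offset did not apply to log2 values. Figures were drawn with matplotlib 3.10.9.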

Additional observations from a re-analysis of the deposited data

Results flagged for a closer look

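Among 166 groups of 4 arrays, 1 array lay apart from the other 3 in 10, where chance flags about 1 in 20. The measure is the array's gap to its nearest neighbour as a share of the group's range. In Slc22a6 knockout replicate 1 was high at 3.98, against 3.51 to 3.52 (0.991). In Slco5a1 wild-type replicate 3 was high at 3.81, against 3.52 to 3.53 (0.986). In Slc22a30 wild-type replicate 2 was high at 1.62, against 1.29 to 1.30 (0.961). In Slc22a13b wild-type replicate 4 was low at 4.22, against 4.74 to 4.80 (0.894). In Slco1b2 knockout replicate 2 was low at 2.27, against 2.46 to 2.49 (0.861). In Slc47a1 knockout replicate 1 was low at 3.90, against 4.19 to 4.25 (0.844). In Slc22a21 knockout replicate 2 was high at 3.61, against 2.92 to 3.03 (0.832). In Slco1a5 knockout replicate 4 was high at 4.40, against 4.22 to 4.25 (0.830). Among related genes, wild-type replicate 4 was low for Pdzk1ip1 at 7.64, against 7.78 to 7.79 (0.964). For Slc9a3r1 wild-type replicate 3 was high at 9.76, against 9.69 to 9.70 (0.887).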

How the results depend on the processing

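Of the 14 calls, 9 passed under each alternative in which the gene was tested; the exceptions are Slc22a15, Slc10a7, Slco4c1, Slc10a4 and Slc22a30. The count of carriers that fell, 4, was 2 without the dimmest 50% of genes, where 14 carriers were tested, was 5 with quantile normalization and after subtraction of neighbouring genes, and ran from 2 to 4 as arrays were left out, with 2 without wild-type replicate 4 or knockout replicate 2, 3 or 4. The count that rose ran from 8 to 11 over all alternatives. The sign of Slco2b1, -0.0070, turned to 0.0091 with quantile normalization, 0.014 with median centring and 0.12 after subtraction of neighbouring genes, and ran from -0.11 to 0.056 as arrays were left out. For Slc22a7 that range was -0.041 to 0.099. The cause was not tested. With the replicate number as a block, 8 carriers rose and 3 fell, and 3717 genes passed in place of 4626; Slc10a7, Slco4c1 and Slc22a30 were lost. Same-numbered arrays correlated in their deviations from the group means with r from -0.0015 to 0.0589, and differently numbered ones from -0.0613 to 0.0406. Not every array correlated best with its own number. With 4 arrays per group these values cannot show whether same-numbered arrays share more than a number. Counts of related genes stayed within 49 to 56 higher and 10 to 16 lower. Changes at dim signals are limited by the lack of a background measure.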

Other observations

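Exact repeats of a value within 1 probe set occurred in 1155 of the 41345 probe sets (2.79%). Among the carriers they were in Slc22a30, where wild-type replicates 3 and 4 both read 1.29, and in Slco5a1, where wild-type replicates 2 and 4 both read 3.52.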
